A study of Mus musculus with 8 samples.

Results

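The lysyl oxidase family of the mouse comprises 5 genes, Lox, Loxl1, Loxl2, Loxl3 and Loxl4, which were found by symbol among the 55679 genes of the deposited expression table, 1 entry for each symbol. All 5 were among the 19364 genes tested, and each was above the filter of 0.1 FPKM in every library. FPKM counts sequenced fragments per kilobase of transcript, scaled to the mapped fragments of the library, so it can be compared between libraries and between genes, within limits of scaling and of gene length that are given below. Left ventricles of male wild-type C57BL/6J mice were compared after 7 days of subcutaneous mini-pump infusion of saline (control, 4 libraries) or the pressor peptide angiotensin II (ANG II) given at 1500 ng/kg/min (4 libraries). Age was not given in the sources used here, both groups carried a pump, and no allele was altered in either. The comparison asks which genes differ in the hypertrophied ventricle of this hypertension model. The methods of the study call its samples biological replicates, without tying single libraries to animals. The p-values set the difference between groups against the variation between these libraries.

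Lysyl oxidases are secreted, copper-dependent enzymes that oxidise the side chain of lysine and hydroxylysine in collagen and elastin to a reactive aldehyde. The aldehydes condense into covalent cross-links that make fibres insoluble and stiff, and in the heart this step is known as part of interstitial fibrosis. Lox and Loxl1 are made as proenzymes with an N-terminal propeptide that is cut off outside the cell, whereas Loxl2, Loxl3 and Loxl4 carry scavenger receptor cysteine-rich domains in front of the catalytic domain. Lox acts on fibrillar collagen and elastin, Loxl1 is known for elastic fibre upkeep together with fibulin-5, and Loxl2 is known to cross-link collagen IV of basement membranes.

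The catalytic domain at the C-terminal end is what defines the family, and its histidine-rich copper-binding stretch shows how closely the members are related. The 60 coding bases around that stretch are given 5′ to 3′ on the coding strand, from GENCODE M21 transcripts (GRCm38), with the 4 clustered histidine codons of the copper-binding motif in capitals and another histidine codon, the third of each stretch, left in lower case. In each gene the stretch crosses an exon junction, so that the genomic span includes an intron. It lies in exons 3 and 4 of 7 of Loxl1 (chr9:58293705-58294393, minus strand), exons 10 and 11 of 14 of Loxl2 (chr14:69682304-69689052, plus strand), exons 10 and 11 of 14 of Loxl3 (chr6:83049983-83050140, plus strand), and exons 11 and 12 of 15 of Loxl4 (chr19:42598792-42599911, minus strand).
Loxl1: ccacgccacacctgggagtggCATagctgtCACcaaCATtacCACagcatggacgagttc
Loxl2: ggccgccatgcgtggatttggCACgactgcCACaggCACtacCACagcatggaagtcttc
Loxl3: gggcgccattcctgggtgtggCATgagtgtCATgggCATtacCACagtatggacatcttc
Loxl4: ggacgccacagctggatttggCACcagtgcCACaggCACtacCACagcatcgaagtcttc
Loxl2 and Loxl4 had the same base at 52 of the 60 positions, Loxl2 and Loxl3 at 46, and Loxl3 and Loxl4 at 44. Loxl1 matched Loxl3 at 43, Loxl4 at 41 and Loxl2 at 40 positions. The stretch of Lox, not shown, matched that of Loxl1 at 54 positions and those of Loxl2, Loxl3 and Loxl4 at 39, 41 and 38. By these bases Lox stood with Loxl1, and Loxl2 with Loxl4.

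All 5 genes rose with ANG II. Lox rose most, with a ratio of group means of 23.9, followed by Loxl3 at 8.31, Loxl1 at 3.49, Loxl2 at 3.15 and Loxl4 at 3.06. In each of the 5, all 4 ANG II libraries lay above all 4 control libraries. The criteria for a call were a limma p under 0.05 after Benjamini-Hochberg adjustment over all tested genes, and a log2 fold change of (FPKM + 1) beyond 0.5 in either direction. By that rule 5 of 5 lysyl oxidase genes were called higher, against 14.0% of all genes tested, and 15.4% of all genes were called in either direction. Groups without overlap in the upward direction were found for 28.7% of all genes. The median log2 fold change over all genes tested was 0.15, and the 5 members had a median of 1.73.

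**Figure D1:**
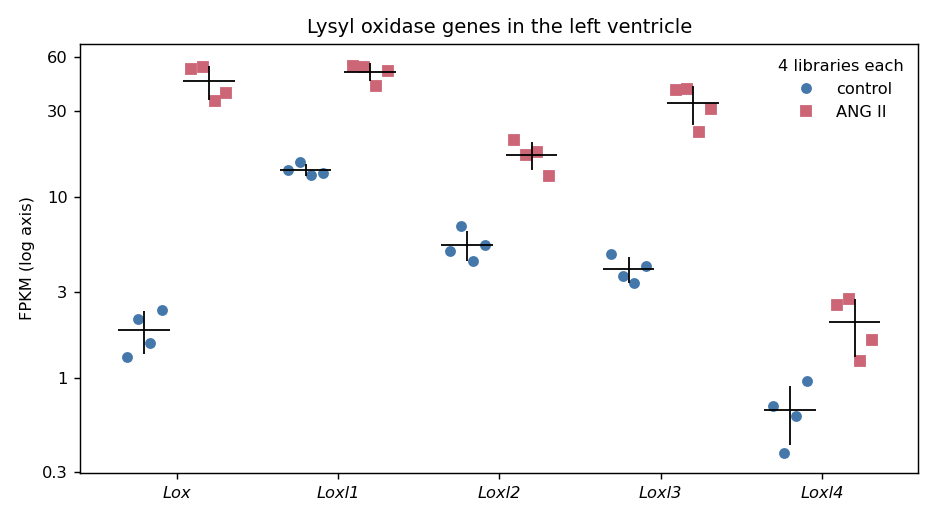
FPKM (log axis) of the 5 lysyl oxidase genes in each library, with 4 control libraries as circles, 4 ANG II libraries as squares, and the group mean and SD in black. ANG II libraries lay above control libraries for all 5 genes, and the gap was widest for Lox, from a highest control value of 2.38 to a lowest ANG II value of 34.1.

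Lox, the enzyme after which the family is named, measured 1.31, 2.13, 1.56 and 2.38 FPKM across control libraries 1 to 4, against 51.7, 52.7, 34.1 and 37.8 FPKM across ANG II libraries 1 to 4. ANG II libraries 1 and 2 were high and 3 and 4 lower, yet the lowest was far above every control library. Between 87 and 168 fragments stood behind each control value and between 2371 and 3869 behind each ANG II value. The mean went from 1.84 ± 0.497 to 44.1 ± 9.54 FPKM (SD, n = 4 libraries per group). In log2 units this was a rise of 3.98 (SE 0.168, adjusted p in limma 1.76e-06). By log2 fold change of (FPKM + 1) Lox ranked 7 of the 19364 genes tested. Lox lay above 42.5% of the tested genes in control and above 88.9% in ANG II.

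Loxl1, known for its part in renewing elastic fibres, had the highest level of the family in the saline-infused controls. Its control libraries held 14.2, 15.7, 13.3 and 13.6 FPKM and its ANG II libraries 53.8, 53.1, 41.6 and 49.9 FPKM. These were tight groups, with coefficients of variation of 7.57% in control and 11.3% in ANG II, and ANG II library 3 was the lowest of its group. The fragments behind a value ranged from 679 to 756 in control and from 2073 to 2791 in ANG II. From a mean of 14.2 ± 1.07 to one of 49.6 ± 5.59 FPKM (SD, n = 4 per group), it rose by 1.73 in log2 units (SE 0.0883, adjusted p in limma 3.13e-06).

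Loxl3, which carries the scavenger receptor domains and acts on collagen and fibronectin, moved second most. Its control libraries gave 4.86, 3.67, 3.34 and 4.16 FPKM, and those with ANG II gave 39.3, 40.1, 23.0 and 30.8 FPKM. As for Lox, ANG II libraries 1 and 2 were high and library 3 was lowest, and no ANG II value came near the control range. Fragments numbered 97 to 127 in control and 629 to 1155 in ANG II. The mean went from 4.01 ± 0.66 to 33.3 ± 8.04 FPKM (SD, n = 4 per group). The rise of 2.75 in log2 units (SE 0.169, adjusted p in limma 6.12e-06) ranked 34 among all genes tested.

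Loxl2, the collagen IV cross-linker, gave 5.02, 6.90, 4.46 and 5.47 FPKM without ANG II, against 20.7, 17.1, 17.9 and 13.2 FPKM with it. Unlike in the other 4 members, ANG II library 4 and not library 3 was the lowest. Between 303 and 421 fragments were behind the control values and between 878 and 1309 behind the ANG II values. The mean rose from 5.46 ± 1.04 to 17.2 ± 3.10 FPKM (SD, n = 4 per group), by 1.49 in log2 units (SE 0.146, adjusted p in limma 7.88e-05).

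Loxl4 was the least abundant member in both groups. Control libraries held 0.701, 0.381, 0.611 and 0.960 FPKM and ANG II libraries 2.54, 2.73, 1.24 and 1.62 FPKM, and the groups came close at 0.960 against 1.24. These values rested on 11 to 29 fragments in control and 37 to 86 in ANG II, the thinnest support in the family, and the coefficients of variation of 36.1% and 35.3% were the largest. The mean rose from 0.663 ± 0.239 to 2.03 ± 0.718 FPKM (SD, n = 4 per group), by 0.85 in log2 units (SE 0.183, adjusted p in limma 0.00588). At so low a level the added 1 FPKM compresses the change, and with 0.1 FPKM added instead it came to 1.47. An exact two-sided permutation test over the 70 allocations of the 8 libraries gave p = 0.0286 for each of the 5 genes, which is the smallest value that 4 against 4 libraries can give.

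The steps in the deposited values gave 14455654 to 16564828 fragments per library, so depth differed little. Mitochondrially encoded genes took 26.3% to 27.0% of the fragments in control and 19.2% to 21.8% in ANG II, the highest ANG II share being in library 3. The share of calls that went up was 90.8% as deposited, 67.5% after median-of-ratios scaling and 58.9% after quantile normalization. The members stayed called under both, with Lox at 3.79 and 3.74, Loxl3 at 2.55 and 2.50, Loxl1 at 1.51 and 1.53, Loxl2 at 1.28 and 1.22, and Loxl4 at 0.72 and 0.61 on the log2 scale. Without ANG II library 3 the log2 fold changes were 4.09 for Lox, 1.81 for Loxl1, 1.47 for Loxl2, 2.91 for Loxl3 and 0.98 for Loxl4, all of them still called by limma.

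Loxl1 was the most abundant member in control, and Lox, next to last in control, moved next to it in ANG II. In deposited FPKM the control order was Loxl1, Loxl2, Loxl3, Lox and Loxl4, in which the ranges of Loxl2 and Loxl3 overlapped and the other neighbours lay apart. In ANG II the order became Loxl1, Lox, Loxl3, Loxl2 and Loxl4. There Loxl1 and Lox overlapped in range, as did Lox and Loxl3, although within each of the 4 libraries Loxl1 was above Lox and Lox above Loxl3. Summed over the 5 genes, control libraries held 26.2 ± 2.27 FPKM and ANG II libraries 146 ± 24.7 FPKM (SD, n = 4 per group), a ratio of 5.58.

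**Figure D2:**
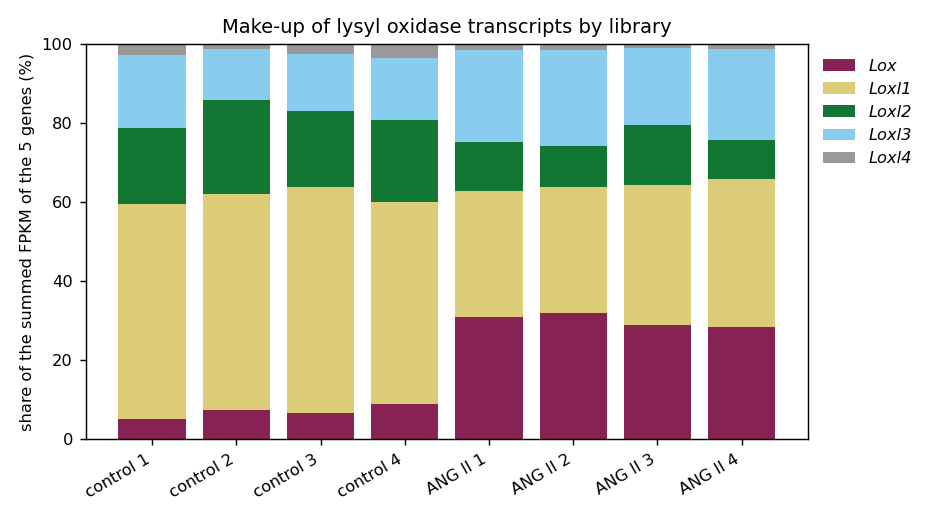
Share of each gene, in percent, in the summed deposited FPKM of the 5 lysyl oxidase genes, 1 bar per library. Lox made up at most 8.98% of the sum in a control library and 28.3% to 31.8% in the ANG II libraries, while Loxl1 went from 51.1% to 57.1% down to 32.0% to 37.5%.

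The make-up of the family, given here as a description with no test, differed between the bars of the control and ANG II libraries. Mean shares of the sum were 7.02% in control and 29.97% in ANG II for Lox, 54.3% and 34.2% for Loxl1, 20.7% and 11.9% for Loxl2, 15.3% and 22.6% for Loxl3, and 2.56% and 1.36% for Loxl4. A smaller share did not mean a lower level, since every member rose in FPKM.

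How FPKM is divided by length matters for comparing members with each other. The deposited values matched fragments divided by the plain mean length of all annotated transcripts of a gene, short noncoding ones included. For Loxl3 that mean was 1808 bases over 5 transcripts, of which 2 were coding, while the longest coding transcript had 4098 bases. Loxl4 likewise had a mean of 1975 against 3738 bases, Loxl2 4179 against 5316 and Lox 4605 against 4741, and Loxl1 had a single transcript of 3297 bases. Expressed per length of the longest coding transcript, Loxl3 came to 1.77 ± 0.291 FPKM without and 14.7 ± 3.55 FPKM with ANG II (SD, n = 4 per group). Its place in the order was then different. In control it overlapped with Lox at 1.79 ± 0.483 FPKM, and in ANG II it overlapped with Loxl2 at 13.5 ± 2.44 FPKM (SD, n = 4 per group). The other steps of the order held, with Loxl1 first and Loxl4 last in both groups, at 0.350 and 1.07 FPKM for Loxl4. On this scale the shares of the family in control and ANG II were 7.96% and 34.9% for Lox, 63.5% and 41.0% for Loxl1, 19.0% and 11.2% for Loxl2, 7.93% and 11.95% for Loxl3, and 1.59% and 0.861% for Loxl4. Loxl3 and Loxl4 thus took smaller shares than in deposited FPKM, and each member's share moved in the same direction. Which transcripts of Loxl3 and Loxl4 were present cannot be read from values summed per gene. Fold changes between groups do not depend on the length used, apart from the added 1 FPKM.

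**Figure D3:**
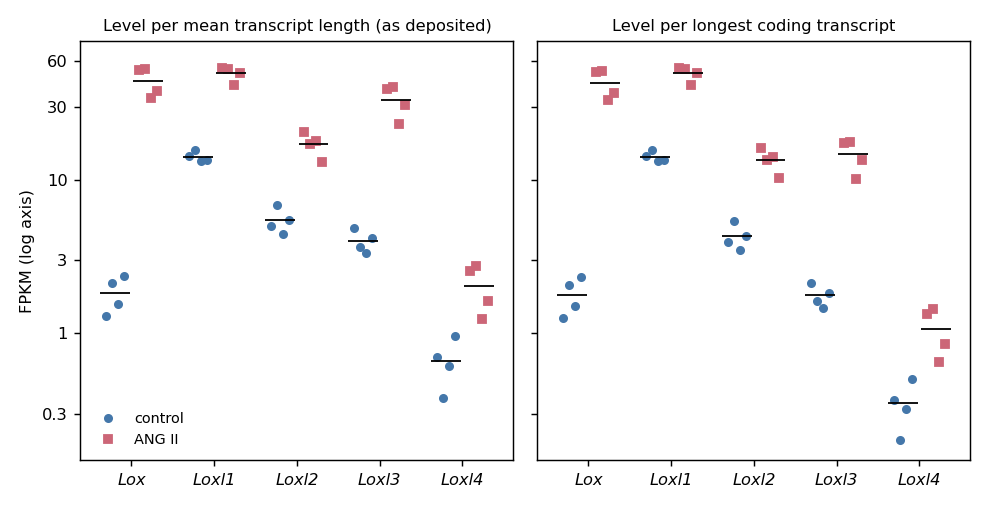
FPKM (log axis) of the 5 genes per library with 2 choices of gene length, the mean over all annotated transcripts as deposited (left) and the longest coding transcript (right), with control as circles, ANG II as squares and group means as lines. Loxl3 in ANG II lay at 33.3 FPKM on the left and 14.7 FPKM on the right, level with Loxl2 at 13.5 FPKM, while Loxl1 was the same on both sides.

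Whether the members rose by different amounts was examined with the ratio of each pair of members within a library, as a log2 ratio of (FPKM + 1), for all 10 pairs. In 8 pairs the 4 ANG II ratios lay apart from the 4 control ratios (exact two-sided permutation p = 0.0286 each, 0.0357 after Benjamini-Hochberg adjustment over 10 pairs). Lox gained on every other member. The log2 ratio of Lox over Loxl1 went from -2.43 ± 0.254 to -0.18 ± 0.183 (SD, n = 4 per group), so that Lox came from well below Loxl1 to near it. Relative to the other members Lox gained 2.49 over Loxl2, 1.23 over Loxl3 and 3.13 over Loxl4 on the log2 scale. Loxl3 gained 1.02 over Loxl1, 1.26 over Loxl2 and 1.91 over Loxl4.

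For Loxl1 over Loxl2 the change of 0.24 in the log2 ratio was within the overlap of the groups, from 1.08 to 1.39 in control and from 1.17 to 1.85 in ANG II (exact permutation p = 0.229). Loxl2 over Loxl4 changed by 0.64 with overlap as well (exact permutation p = 0.0857). Loxl1 over Loxl4 was higher in ANG II by 0.88, but with 0.1 FPKM added in place of 1 the difference was 0.32 and the groups overlapped (exact permutation p = 0.40). The low counts of Loxl4 thus leave its ratios to Loxl1 and Loxl2 dependent on the added constant.

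**Figure D4:**
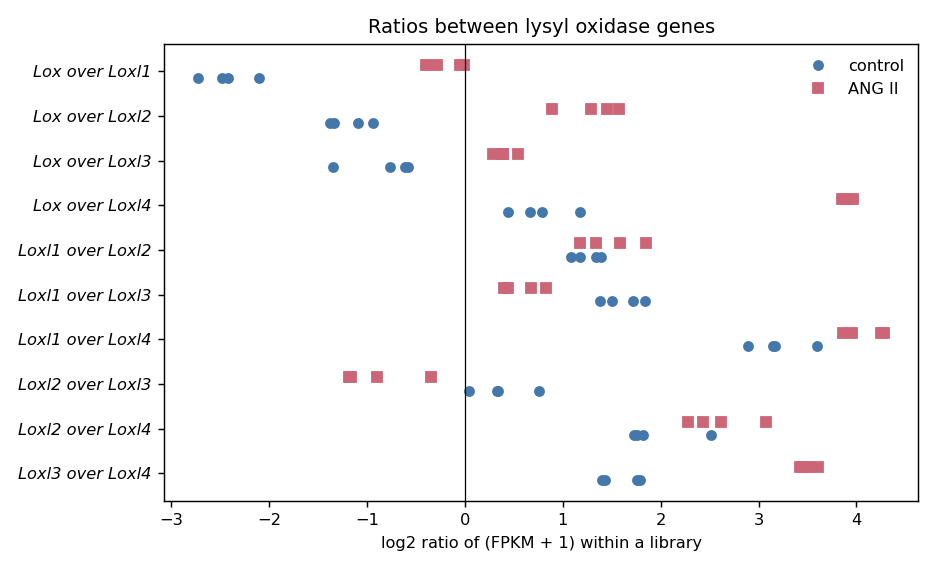
Log2 ratio of (FPKM + 1) between each pair of lysyl oxidase genes within a library, with 4 control libraries as circles and 4 ANG II libraries as squares on each line. The groups lay apart in 8 of 10 pairs and overlapped for Loxl1 over Loxl2 and for Loxl2 over Loxl4.

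How the members varied together among the libraries is given as a description. Deviations of log2 values from the ANG II mean had Pearson correlations of 0.880 to 0.996 among Lox, Loxl1, Loxl3 and Loxl4 over the 4 ANG II libraries, and of 0.086 to 0.472 between these and Loxl2. Over all 8 libraries, with each group's mean taken off, the same 2 sets of pairs overlapped, at 0.475 to 0.852 and 0.085 to 0.535. These points share library, depth and tissue piece, and 4 libraries carry little weight. Over all 8 libraries, the genes most like Lox in log2 values were Gak, Col8a1 and Fbln2 (Pearson r of 0.997 to 0.998 among 11914 genes averaging 1 FPKM or more). For Loxl1 they were Aspn, Nppa and Itgbl1, for Loxl2 Ankrd13a, Cd109 and Fkbp1a, and for Loxl3 Rai14, Mxra7 and Meox1, with r from 0.995 to 0.999. With the libraries in 2 separate groups, these values mainly restate the difference between the groups.

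In the annotation (GENCODE M21, GRCm38), Lox spans bases 52516067 to 52529867 of chromosome 18 on the minus strand and Loxl1 bases 58287738 to 58313186 of chromosome 9 on the minus strand. Loxl2 spans 69609068 to 69695834 of chromosome 14 on the plus strand, Loxl3 83034173 to 83052562 of chromosome 6 on the plus strand, and Loxl4 42593982 to 42612813 of chromosome 19 on the minus strand. No 50-base stretch of any member's transcripts occurred in another member's, so exact matches of that length cannot be exchanged within the family. Toward other genes, 45.0% of the 50-base stretches of Loxl2 and 8.54% of those of Loxl3 were shared, and 0% of those of Lox, Loxl1 and Loxl4. For Loxl2, 42.9% were also present in Gm21451, an unprocessed pseudogene on the same chromosome, and 3.85% on the opposite strand in Gm16867. Gm21451 held 2 to 12 fragments per library against 303 to 1309 for Loxl2, and its log2 fold change was 0.03 (limma adjusted p = 0.82). How fragments were split between these copies was not given in the sources used here, and the level of Loxl2 is uncertain to that extent. Genes on the opposite strand cover 5.57% of the exon length of Loxl2 and 0.628% of that of Lox. Loxl3 overlaps Htra2 on the opposite strand over 11.6% of its exon length, and its shared stretches were all with Htra2 in antisense. Htra2 held 188 to 271 fragments per library and a log2 fold change of 0.26, and since the use of strand was not given, reads from the overlap cannot be told apart.

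Most substrate genes rose as well. Of 12 collagen and elastin genes 9 were called higher and 0 lower, with a median log2 fold change of 2.04. Counts of this list and of those that follow stand beside 14.0% called higher among all genes and 273 of 19364 called lower. So few genes were called lower that 0 in a list is near the share over all genes. The 14.0% covers genes down to 0.1 FPKM, where the added 1 FPKM compresses changes. Voom on recovered fragments called 18.9% of its tested genes higher. Col1a1, a chain of fibrillar collagen I, went from 64.7 ± 17.2 to 608 ± 52.2 FPKM (SD, n = 4 per group), a rise of 3.25 in log2 units (SE 0.164, adjusted p in limma 3.1e-06). Its partner chain Col1a2 rose by 3.13, Col5a2 of collagen V by 3.01 and Col3a1 of collagen III by 2.89, and Eln, which encodes tropoelastin, rose by 1.97. Col11a1 of collagen XI, at 2 to 16 fragments in control and 108 to 350 in ANG II, rose by 2.36 on this scale and by 4.63 with voom on the recovered fragments, where Lox rose by 4.59. The basement membrane chains Col4a1 and Col4a2 rose by 1.10 and 1.00. Col5a3, at 0.46, and the cartilage chains Col2a1, at 0.28, and Col11a2, at -0.04, were not called, although Col5a3 was when the recovered fragments were tested with voom. In proportion, the summed FPKM of the 5 lysyl oxidase genes was set against the sum of Col1a1, Col1a2 and Col3a1. It was 7.55% to 10.4% of that sum in control and 4.80% to 7.01% in ANG II, ranges that did not overlap. Single members differed in this. The ratio of group means was 23.9 for Lox and 8.31 for Loxl3, against 9.39, 8.75 and 7.34 for Col1a1, Col1a2 and Col3a1. For Loxl1, Loxl2 and Loxl4 it was 3.49, 3.15 and 3.06.

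**Figure D5:**
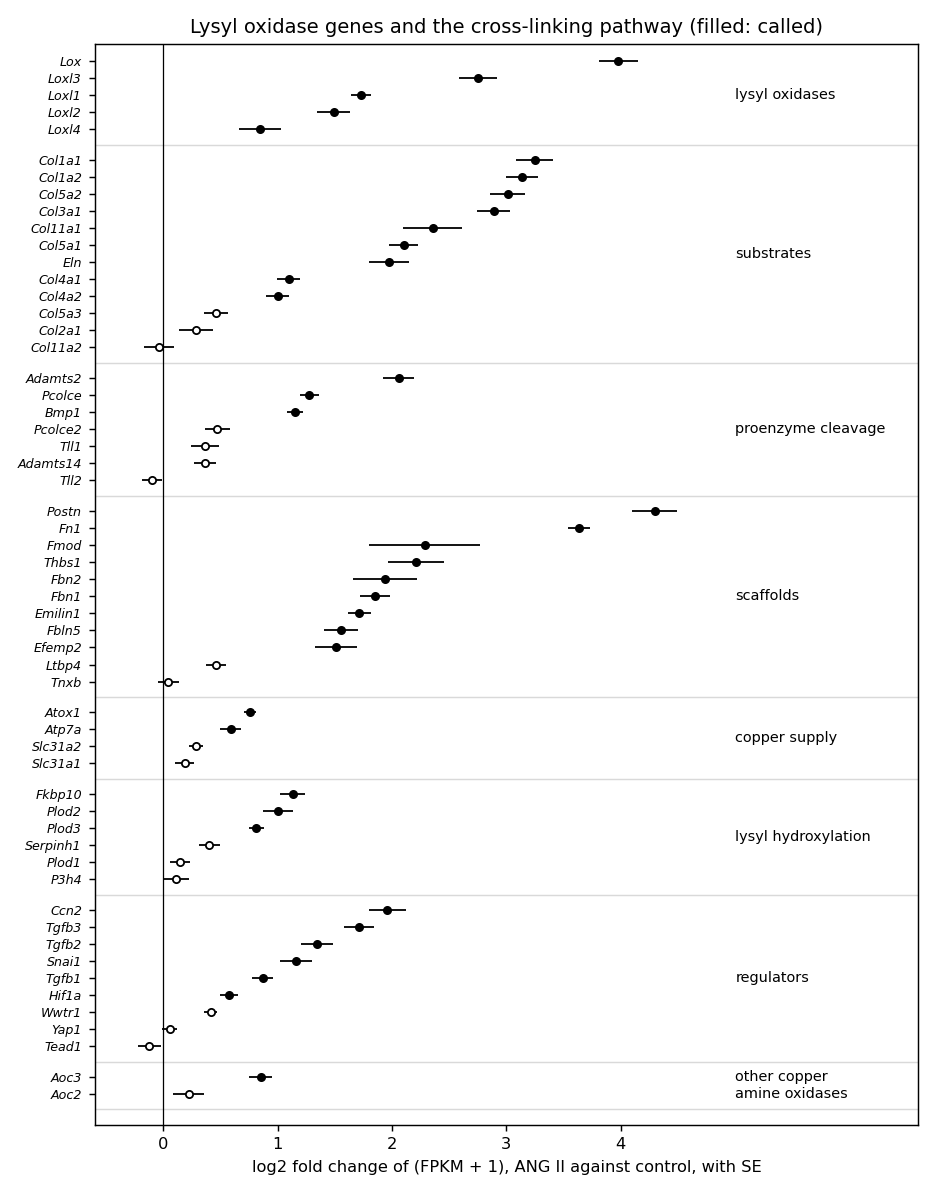
Log2 fold change of (FPKM + 1), ANG II against control, with its SE, for the lysyl oxidase genes and the tested genes of 7 lists around cross-linking, where filled points were called. On this scale Lox, at 3.98, lay beyond every listed gene except Postn at 4.30. No listed gene was called lower, beside 273 of all 19364 genes tested.

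Of 11 genes for proteins that place the enzymes on fibres or bind them, 9 were called higher and 0 lower, with a median log2 fold change of 1.85. Periostin (Postn), which helps to bring the protease Bmp1 to its matrix sites, went from 33.2 ± 8.28 to 667 ± 141 FPKM (SD, n = 4 per group), a rise of 4.30 in log2 units. Its order with Lox turned with the constant, since with 0.1 FPKM added Postn rose by 4.33 and Lox by 4.52, and the ratios of means were 20.1 and 23.9. Fibronectin (Fn1) rose by 3.63, fibromodulin (Fmod), which binds Lox and collagen, by 2.29, and thrombospondin-1 (Thbs1) by 2.21. Fibulin-5 (Fbln5), the partner of Loxl1, rose by 1.55 and fibulin-4 (Efemp2), which tethers Lox to tropoelastin, by 1.51. Ltbp4, at 0.46, and Tnxb, at 0.04, were not called.

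Of the proteases that cut the proenzymes or procollagens, and their enhancers, 3 of 7 were called higher and 0 lower, with a median of 0.47. Bmp1, which removes the propeptide of Lox, rose by 1.15, its enhancer Pcolce by 1.28 and the procollagen N-proteinase Adamts2 by 2.06. The Bmp1 relatives Tll1 and Tll2, at 0.259 and 0.235 FPKM in control, were not called. On the recovered fragments (voom), Tll1, Adamts14 and Pcolce2 of this list were called as well.

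Fold changes were small among genes for copper delivery. Of 4 tested, 2 were called higher and 0 lower, with a median log2 fold change of 0.44. The copper chaperone Atox1 rose by 0.76 and Atp7a, the pump that loads copper into secreted enzymes, by 0.59, from 2.38 ± 0.214 to 4.07 ± 0.246 FPKM (SD, n = 4 per group). Atp7a was no longer called under any of the 3 other scalings (median-of-ratios, quantile and a common total without mitochondrial and the 10 highest genes), which left 1 of the 4. The copper importer Slc31a1 stood at 0.19 and was not called, and Atp7b, with 0 to 4 fragments per library, was not tested.

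Of 6 genes for the hydroxylation of collagen lysines, 3 were called higher and 0 lower, with a median of 0.61. Plod2, the enzyme for telopeptide lysines, on which the more stable hydroxylysine-derived cross-links depend, rose by 1.00, and its partner Fkbp10 by 1.13. Plod3 rose by 0.81, whereas Plod1 stood at 0.14 (limma adjusted p = 0.23).

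Among 9 listed genes of signalling and transcriptional regulators, 6 were called higher and 0 lower, with a median log2 fold change of 0.87. Whether any of them acts on the family in these ventricles was not tested. Ccn2 (Ctgf in the deposited table) rose by 1.96, Tgfb3 by 1.71, Tgfb2 by 1.34 and Snai1 by 1.16. Tgfb1 rose by 0.87 and Hif1a by 0.57, and the call of Hif1a was lost under the same 3 scalings. Yap1, at 0.06, its DNA-binding partner Tead1, at -0.12, and its paralogue Wwtr1, at 0.41, were not called. Wwtr1 missed the fold threshold only, at an adjusted p in limma of 0.000388, and its ANG II libraries all lay above its control libraries. Of the copper amine oxidases of the other family, which use another cofactor, Aoc3 rose by 0.85 and Aoc2 was not called. Over the 7 lists 33 of 51 tested genes were called higher by limma, against 14.0% of all genes tested, and the median was 1.00. None, 0 of 51, was called lower, beside 273 of all 19364, so this 0 is near the share over all genes. At an unadjusted limma p under 0.05, 42 were higher, against 35.9% of all genes tested, and 0 lower. The count of all genes lower at that p is not given here. Voom on the recovered fragments called 37 higher, against 18.9% of the genes it tested, and 0 lower. Of all 3995 voom calls, 90.4% went up.

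The libraries are whole-tissue RNA, in which more cells of a type and more RNA per cell cannot be told apart. An extraction note among the labels speaks of CRC cells, but the 6 cardiomyocyte markers summed to 16608 to 22803 FPKM in every library. The sum was 16608 to 17723 FPKM in ANG II and 22286 to 22803 FPKM in control. Of the 6 markers 2 were called lower, beside 273 of all 19364 genes tested, Myh6 at -0.55 and Tnni3 at -0.58 on the log2 scale. These stood at -0.10 and -0.37, inside the threshold, after quantile normalization, and at -0.78 and -0.81 after median-of-ratios scaling. The other 4 markers lay between -0.13 and 0.05 as deposited and between -0.36 and -0.18 after median-of-ratios scaling. Of 7 markers of fibroblasts, a main source of matrix enzymes in the heart, 6 were called higher. Of these, Pdgfra, at 0.67, stood at 0.45 after median-of-ratios scaling and at 0.45 after quantile normalization, inside the threshold. Tcf21, at 0.74, stood at 0.55 and 0.44. Gsn, the most abundant of the 7, went the other way, from 819 ± 97.5 to 587 ± 122 FPKM (SD, n = 4 per group). Its log2 difference of -0.50 was not called. All 7 summed to 995 to 1311 FPKM in control and 1181 to 1537 FPKM in ANG II, and the 6 without Gsn to 321 to 434 and 746 to 860 FPKM. The sum of the 5 lysyl oxidase genes was 2.02% to 2.34% of the fibroblast marker sum in control and 7.79% to 14.0% in ANG II, a ratio of mean shares of 4.93. Against the 6 markers without Gsn it was 6.13% to 7.24% in control and 14.1% to 22.2% in ANG II, a ratio of 2.74. All 6 macrophage markers were called higher, from sums of 219 to 285 to sums of 483 to 681 FPKM.

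For other cell types the number of markers called higher is given beside the 14.0% called higher among all genes, with no test between lists. The 5 red cell markers were all called higher, from sums of 96.8 to 487 to sums of 581 to 2083 FPKM. The 3 tested atrial markers summed with Bmp10 to 1.15 to 48.8 FPKM in control and 52.5 to 230 FPKM in ANG II, with 1 called, and Bmp10 itself was at 0 in 6 of 8 libraries. Of 6 smooth muscle and pericyte markers 2 were called higher (446 to 521 and 512 to 575 FPKM), of 6 endothelial markers 1 (369 to 421 and 422 to 499 FPKM), and of 5 valve markers 2 (9.04 to 22.6 and 13.7 to 20.8 FPKM). In each of these lists 1 call fell inside the fold threshold after median-of-ratios scaling and quantile normalization. Pdgfrb went from 0.62 to 0.40 and 0.39, Pecam1 from 0.52 to 0.29 and 0.34, and Acan from 0.51 to 0.45 and 0.39. None of the 4 tested adipocyte markers (0.673 to 7.03 and 0.836 to 13.1 FPKM) or the 6 mesothelial markers (6.30 to 8.21 and 6.05 to 9.31 FPKM) was called by limma or voom, and 0 of them had an unadjusted limma p under 0.05. The part of these cells in the rise of the lysyl oxidase genes was not tested.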

How the data were processed

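RNA-seq was analysed for 8 libraries of left ventricle, 4 per group, assigned from the treatment labels. The authors deposited 1 table of FPKM values per gene and library, without pooling. The study names another RNA-seq deposit, not used here, so these libraries are part of its samples. The submitters' processing notes name HISAT, Bowtie2 and RSEM without versions, and the genome build, annotation and use of strand were not given in the sources used here. The deposited FPKM values fell on whole fragments once the unweighted mean length of a gene's GENCODE M21 transcripts was multiplied in (tolerance 0.02, values under 60 fragments), for 99.1% to 99.2% of values of genes with 1 transcript and 96.9% to 97.3% of those with several. In M21, 55141 of the 55679 gene IDs were found.

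Differences were tested with limma 3.58.1 in R 4.3.3 (lmFit and eBayes, trend on) applied to log2(FPKM + 1) of genes averaging 0.1 FPKM or more, with two-sided p-values and Benjamini-Hochberg adjustment across the 19364 genes. Fold changes on this scale understate the change of low genes. Single values were tested by exact permutation. The fit was tested on simulated data. Fragment numbers bear on counting error only. The methods of the study mention PCR amplification and no molecular identifiers, so copies of 1 molecule cannot be told from separate molecules here. Python 3.11.15 was used for sequences and tables. The members, lists and tests were chosen with earlier results of these data known. Genes named are the 5 members, the called genes of each list with the largest changes (up to 4) and any that fell, and the 3 genes most like each member (for Loxl4 not reported here). Other listed genes named were chosen after their values were seen. Alternatives were the added constant, filters, scaling, variance trend, replicate block, thresholds and leaving out each library. Chosen after seeing the data were voom on recovered fragments, fibroblast markers without Gsn, and the length of the longest coding transcript.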

Additional observations from a re-analysis of the deposited data

Results flagged for a closer look

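Within the groups of 4 libraries of the lysyl oxidase genes and of up to 4 called genes with the largest changes in each pathway list (52 groups of 26 genes), 2 held a library far from the others by Dixon's gap test, and chance gives about 1 in 20. Fkbp10 was at 12.3 FPKM in control replicate 2 against 8.32 to 8.82 FPKM in the other control libraries. Aoc3 was at 14.0 FPKM in ANG II replicate 1 against 11.8 to 12.1 FPKM in the other ANG II libraries. No lysyl oxidase gene had such a library.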

How the results depend on the processing

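All 5 lysyl oxidase genes were called higher under each of the 17 alternatives of normalization, filter, added constant, model and library left out, with log2 fold changes of 3.74 to 4.59 for Lox, 1.51 to 1.81 for Loxl1, 1.22 to 1.66 for Loxl2, 2.50 to 3.04 for Loxl3 and 0.61 to 1.59 for Loxl4. The largest limma adjusted p was 0.0368, for Loxl4 after quantile normalization. With an absolute log2 fold change above 1, Loxl4 dropped out, leaving 4 members, 26 pathway genes and 795 of all genes called. Without a fold threshold 6447 of all genes were called. The length of the longest coding transcript moved the level of Loxl3 minus that of Loxl2 in ANG II from 16.1 to 1.17 FPKM, and turned Loxl3 minus Lox in control from 2.16 to -0.023 FPKM. Of 10 member pairs, 7 lay apart with 0.1 FPKM added and 8 to 9 with a library left out, where the smallest possible exact p is 0.0571. Replicate numbers did not pair the samples (correlations of -0.032 to 0.062), and the fit with a replicate block called 5 members, 33 pathway genes and 2968 genes in all. After scaling to a common total without mitochondrial and the 10 highest genes, 78.7% of 2512 calls went up. Voom on recovered fragments called 3995 genes, against 2981 as reported. Loxl4 rested on the fewest fragments of the family, 11 to 29 in control.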
